A study of Mus musculus with 4 samples.

Results

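The genes described here set how much glucose a cell takes up and how fast it passes through glycolysis. They are the glucose transporters Slc2a1, Slc2a3 and Slc2a6, the hexokinases Hk1, Hk2 and Hk3, the regulator Pfkfb3, the lactate dehydrogenase Ldha, the thioredoxin-interacting protein gene Txnip and the hypoxia-inducible factor Hif1a. They were taken by symbol from the gene list of the deposited matrices, where all 10 were found among 32285 genes. Single-cell RNA sequencing of mouse liver suspensions gave 4 libraries from male C57BL/6J mice. The normal chow diet group (NCD, 1 library) ate chow and was given water. The high-fat diet group (HFD, 2 libraries) ate a high-fat diet and was given water. The JQF group (1 library) ate the high-fat diet and then received Jiangtang Qingre Formula by mouth, a mixture of several herbs. No group carried a genetic change. Age and the length of the diet are not in the labels. The livers were perfused and digested, and red cells and dead cells were then removed. With 1 library in NCD and 1 in JQF, the difference between diets or treatments cannot be told apart from a difference between these mice or libraries, and the HFD pair is the only replicated group behind the spread in every test, which is also shared across genes.

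Glucose enters most cells by facilitated diffusion through transporters of the Slc2a (GLUT) family and is trapped by hexokinases as glucose 6-phosphate. Pfkfb3 makes fructose 2,6-bisphosphate, the strongest activator of the committing step of glycolysis, and Ldha turns pyruvate into lactate while regenerating the NAD that glycolysis needs. Hif1a encodes the oxygen-regulated subunit of a transcription factor that raises many of these genes, although its protein is controlled mainly by degradation and not by transcript level. Txnip restrains glucose uptake, and its transcription rises with glucose through the Mondo and ChREBP factors. Myeloid cells and activated lymphocytes are known for a high glycolytic flux, whereas the hepatocyte relies on other isoforms, glucokinase and Slc2a2.

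A barcode counted as a cell when it had 500 or more genes detected and no more than 20% of its UMIs from mitochondrial genes, where a UMI marks 1 captured RNA molecule. This left 5975 cells in NCD, 6516 and 10259 in HFD replicates 1 and 2, and 8540 in JQF, with a median of 13081 UMIs per cell in NCD against 7608 to 8884 in the other libraries. Between 14 and 30 cell barcodes were shared by any pair of libraries, at most 0.33% of the smaller one. The labels call the material both "hematopoietic stem cell" and "Immune cell", but endothelial cells made up 3472 of the kept cells in NCD, so cells were named here by marker genes, each name meaning a cell that resembles that type. In 8 types every library held at least 50 cells: neutrophils, monocytes, macrophages, conventional type 1 dendritic cells (cDC1), NK cells, T cells, B cells and endothelial cells. Each defining marker of these types was above 0 in its own type in all 4 libraries. NCD held only 53 NK cells, 53 monocytes, 61 cDC1 and 91 neutrophils, and HFD replicate 1 held 96 endothelial cells. The UMIs of each gene were summed per library and type. The level is given in CPM, the usual unit that scales the UMIs of every library and type to the same total, always in the order NCD, HFD replicate 1, HFD replicate 2 and JQF.

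Promoter sequences are shown for 4 genes whose levels differed between diets and that are textbook targets of the factors above, Ldha, Pfkfb3 and Slc2a1 for hypoxia-inducible factor and Txnip for the Mondo and ChREBP pathway. Each line holds the 250 bases before the transcript start as RefSeq places it in GRCm38.p6, 5′ to 3′ on the strand of the gene. Capitals mark ACGTG or GCGTG, the core that hypoxia-inducible factors bind, on either strand, so that CACGT and CACGC mark the reverse strand and CACGTG carries the core on both strands.
Ldha, chr7:46845554-46845803, plus strand: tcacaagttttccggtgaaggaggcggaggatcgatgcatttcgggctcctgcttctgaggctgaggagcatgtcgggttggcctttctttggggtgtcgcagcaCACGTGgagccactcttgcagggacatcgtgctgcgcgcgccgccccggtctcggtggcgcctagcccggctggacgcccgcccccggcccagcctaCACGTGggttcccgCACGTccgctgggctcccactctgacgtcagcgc
Txnip, chr3:96557707-96557956, plus strand: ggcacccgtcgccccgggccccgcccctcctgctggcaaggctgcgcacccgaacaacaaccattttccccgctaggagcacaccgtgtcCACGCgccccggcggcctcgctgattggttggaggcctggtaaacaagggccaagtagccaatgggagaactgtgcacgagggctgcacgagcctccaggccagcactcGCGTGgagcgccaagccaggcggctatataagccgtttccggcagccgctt
Pfkfb3, chr2:11553930-11554179, minus strand: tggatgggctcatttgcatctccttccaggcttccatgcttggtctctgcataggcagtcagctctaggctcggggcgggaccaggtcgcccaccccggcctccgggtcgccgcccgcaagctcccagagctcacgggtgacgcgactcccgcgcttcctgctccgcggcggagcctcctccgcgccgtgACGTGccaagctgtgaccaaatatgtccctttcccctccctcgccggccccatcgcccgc
Slc2a1, chr4:119108495-119108744, plus strand: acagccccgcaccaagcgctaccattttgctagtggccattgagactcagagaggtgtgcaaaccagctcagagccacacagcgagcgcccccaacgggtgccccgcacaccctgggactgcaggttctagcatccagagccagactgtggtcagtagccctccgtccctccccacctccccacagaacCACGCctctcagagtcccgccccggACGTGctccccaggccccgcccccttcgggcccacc
The Ldha window held ACGTG 5 times, counting both strands, and all but 1 of these matches lay in 2 copies of the palindrome CACGTG. Txnip held GCGTG 2 times and no ACGTG, Pfkfb3 held ACGTG 1 time, and Slc2a1 held each core 1 time. RefSeq gives a second start for Ldha and for Pfkfb3, whose windows are not shown. The second Pfkfb3 window held ACGTG 2 times, in 1 copy of CACGTG, and GCGTG 1 time, and the second Ldha window held GCGTG 1 time and no ACGTG. RefSeq windows were found for 9 of the 10 genes (12 windows), without Slc2a3. Of all 32851 windows of this length, 38.6% held either core, 16.6% held ACGTG, 28.2% held GCGTG, 6.02% held CACGTG and 6.58% held 3 or more matches. These letters describe the windows and were not tested against any level.

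The transporters, in their gene order on the mouse genome (GRCm38) Slc2a6 at chr2:27021363-27027998, Slc2a1 at chr4:119108711-119137983 and Slc2a3 at chr6:122727809-122801640, shared a cell type. Neutrophils had the highest level of Slc2a1, Slc2a3 and Slc2a6 in each of the 4 libraries, and these were the only 3 of the 10 genes with the same leading type in every library. Slc2a1, the widespread basal transporter, stood at 106, 171, 139 and 121 CPM in neutrophils. The next type by mean over the libraries, monocytes, lay between 44.1 and 60.4 CPM, below neutrophils in 4 of 4 libraries. By mean, NK cells, B cells, T cells and macrophages followed, without a fixed order. In NCD, B cells at 48.6 CPM and macrophages at 46.8 CPM stood above monocytes at 46.2 CPM. Endothelial cells had the least, between 1.61 and 18.3 CPM. Slc2a3, the high-affinity transporter of neurons and leukocytes, stood at 408, 315, 363 and 471 CPM in neutrophils and next at 62.7 to 104 CPM in T cells and 73.4 to 100.1 CPM in NK cells, which could not be ranked against each other. Its lowest mean was in monocytes, at 2.72 to 7.83 CPM. Slc2a6, a transporter of myeloid cells that resides largely in lysosomal membranes, stood at 83.9, 114, 110.2 and 129 CPM in neutrophils and at 35.3 to 43.7 CPM in monocytes, against at most 10.9 CPM in any other of the 8 types.

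**Figure D1:**
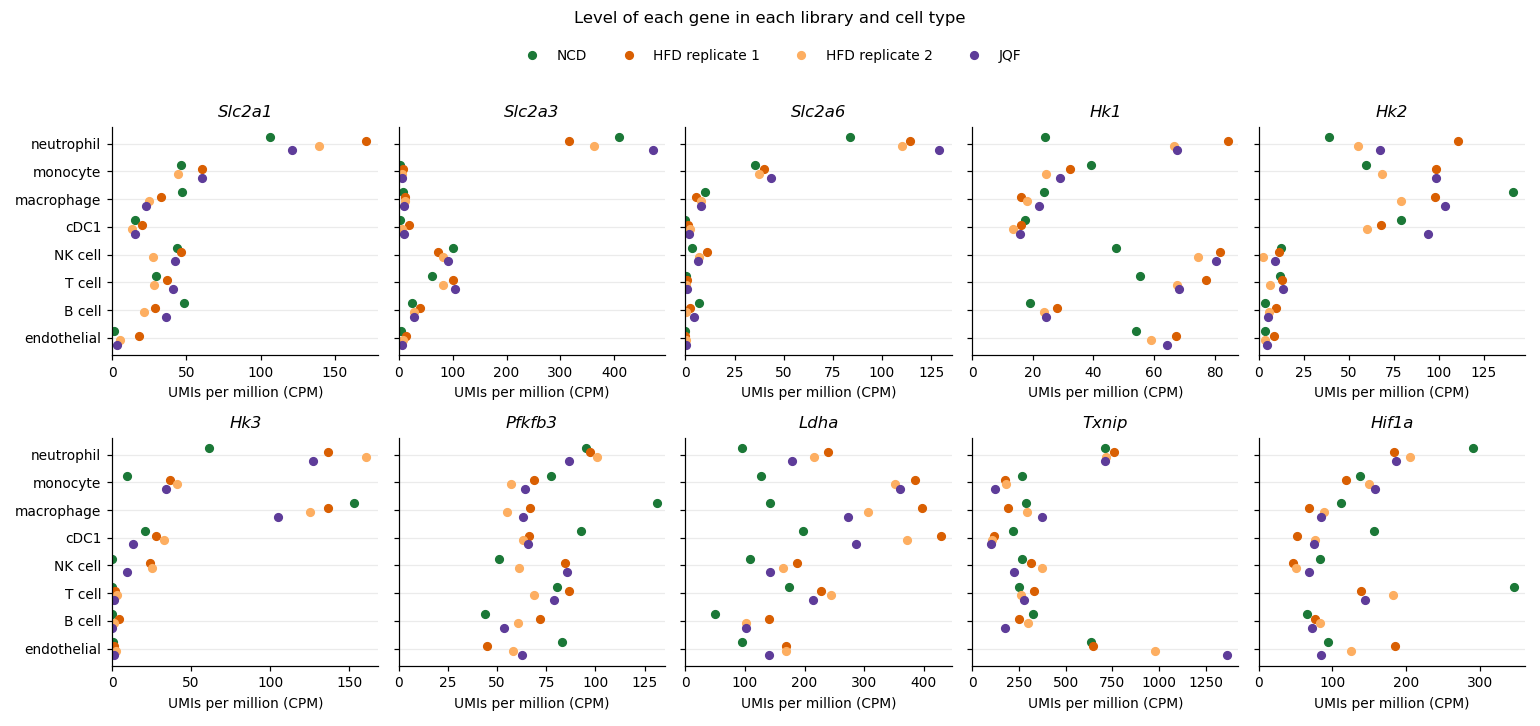
Level of each of the 10 genes in CPM (x axis, a separate linear scale for each gene) in 8 cell types (y axis); each point is 1 library. Neutrophils sit farthest right for Slc2a1, Slc2a3 and Slc2a6 in all 4 libraries, and the NCD point of Ldha lies left of the other libraries in every type.

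The hexokinases differed in the cell types where they were highest. Hk1 (chr10:62268855-62379908), the form bound to mitochondria in most tissues, was spread over NK cells (47.4 to 81.9 CPM), T cells (55.4 to 77.2 CPM), endothelial cells (54.2 to 67.4 CPM) and neutrophils (24.2 to 84.4 CPM) and was lowest in cDC1, at 13.5 to 17.5 CPM. Hk2 (chr6:82725025-82774454), the inducible form, stood at 79.4 to 141 CPM in macrophages, 59.8 to 98.5 CPM in monocytes, 60.3 to 94.1 CPM in cDC1 and 39.2 to 111 CPM in neutrophils. The ranges of these 4 types overlapped, and all of them lay above T cells, at 6.35 to 13.3 CPM. Hk3 (chr13:55005985-55021385), known from granulocytes and macrophages, stood at 105 to 153 CPM in macrophages and 61.5 to 161 CPM in neutrophils, then at 9.51 to 41.1 CPM in monocytes and 13.3 to 33.1 CPM in cDC1. In endothelial cells, B cells and T cells Hk3 did not exceed 4.30 CPM in any library. Over the 45 points of type and library with at least 50 cells, Hk2 and Hk3 had a Pearson r of 0.74 on log2(CPM + 1), the highest among the pairs of these genes, and Hk1 and Hk3 had -0.06. These points share libraries and depth, so the r describes them only.

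Pfkfb3 (chr2:11471433-11554077) was the most even of the enzymes, with mean levels from 57.6 ± 11.8 CPM in B cells to 94.9 ± 6.01 CPM in neutrophils (SD over 4 libraries of 3 groups), and most neighbours in that order could not be separated. Ldha (chr7:46841475-46855627) had its highest mean in cDC1, monocytes and macrophages, whose ranges overlapped, and its lowest in B cells, at 50.3 to 139.8 CPM. Txnip (chr3:96557957-96561883) was far higher in endothelial cells, at 636 to 1361 CPM, and neutrophils, at 710 to 759 CPM, than in the other 6 types, none of which exceeded 373 CPM in any library. Hif1a (chr12:73901375-73947530) had its highest means in neutrophils, at 183 to 291 CPM, and T cells, at 139 to 346 CPM, and its lowest in NK cells and B cells, but the leading type differed between libraries.

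Between diets, 78 of the 80 pairs of gene and type had enough UMIs to be tested, all but Hk3 in B cells and Slc2a6 in endothelial cells. Of these 78 pairs, 9 were higher and 8 lower in HFD than in NCD by edgeR's quasi-likelihood test at an adjusted p under 0.05. The share of all 94624 tested pairs of gene and type that passed was 5.86% higher and 7.67% lower, against 11.5% and 10.3% of these genes' pairs. Within single types the share of all genes called in either direction was 5.65% in B cells, 14.5% in NK cells, 13.4% in T cells, 17.7% in cDC1, 14.1% in endothelial cells, 12.7% in macrophages, 19.4% in monocytes and 7.22% in neutrophils. By gene, Ldha, Hk3, Hk1 and Slc2a1 rose where they passed, Pfkfb3, Txnip and Hif1a fell, and Slc2a3, Slc2a6 and Hk2 passed in no type. The split depended on scaling. With library totals alone in place of TMM factors, 15 pairs were higher and 6 lower, while the median log2 fold change of all genes was between -0.02 and 0.33 by type under totals and between 0.02 and 0.18 under TMM.

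**Figure D2:**
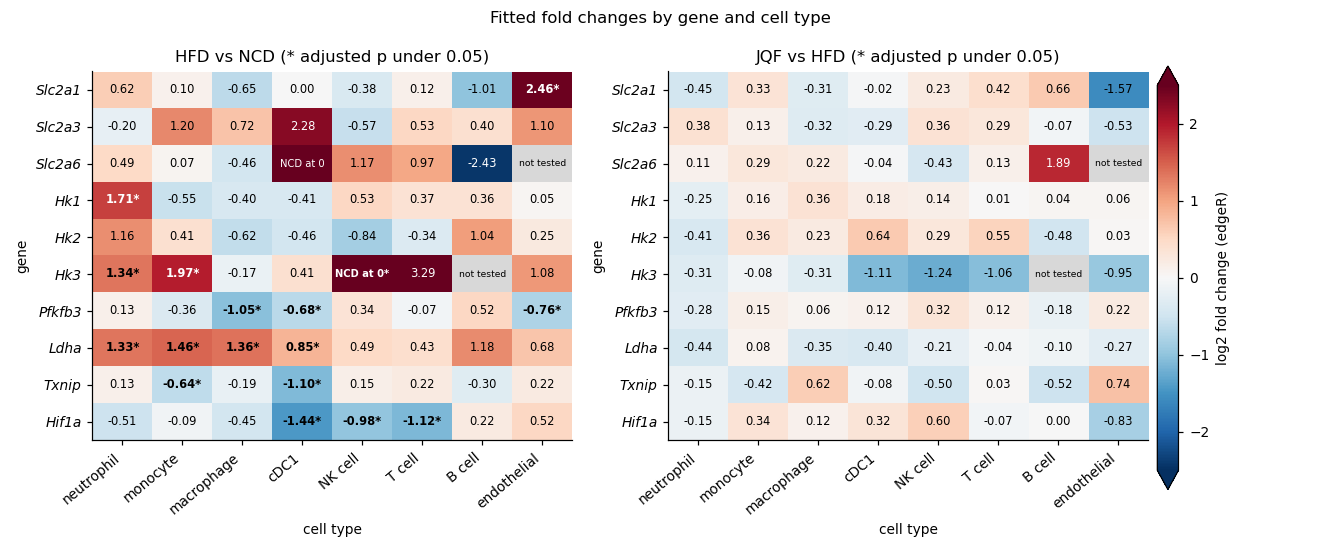
Fitted log2 fold change (edgeR, colour and number) for each gene (rows) in each of 8 cell types (columns), HFD against NCD on the left and JQF against HFD on the right; an asterisk marks an adjusted p under 0.05, and cells marked NCD at 0 have no fold. The left panel holds 9 red and 8 blue asterisks, and the right panel holds none.

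Ldha had the widest change. Both HFD libraries lay above NCD in 8 of 8 types, an order found in 48.5% of all tested pairs of gene and type, and 4 types passed the test. In monocytes Ldha stood at 128, 385, 351 and 360 CPM, a log2 fold change of 1.46 ± 0.24 (SE) from NCD to HFD (edgeR adjusted p = 0.000559). The NCD library was far below the other 3, which lay close together. Macrophage markers in these monocytes summed to 641, 1853, 2193 and 1297 CPM, 9 of the 11 were higher in both HFD libraries, and Clec4f, Vsig4 and Marco were at 0 in NCD. The part of this shift in the Ldha, Hk3 and Txnip calls of monocytes was not tested. In macrophages the values were 142, 396, 306 and 274 CPM (log2 fold change 1.36 ± 0.26, edgeR adjusted p = 0.0320), and in neutrophils they were 95.1, 239, 216 and 179 CPM (1.33 ± 0.33, edgeR adjusted p = 0.0257). In cDC1 they were 198, 428, 372 and 286 CPM (0.85 ± 0.18, edgeR adjusted p = 0.0354). NCD was again lowest in each, with JQF between NCD and the HFD pair. Monocyte markers in macrophages summed to 72.5, 215, 208 and 282 CPM (6 of 7 higher in both HFD libraries), and macrophage markers in neutrophils to 205, 295, 384 and 223 CPM (8 of 11). Their part in the Ldha calls was not tested. T cells had 173, 227, 244 and 215 CPM, endothelial cells 94.9, 168, 168 and 139.7 CPM, NK cells 109, 187, 164 and 142 CPM, and B cells 50.3, 139.8, 101 and 102 CPM, where the test was not passed. In the B cells of HFD replicate 1, 51.2% of the Ldha UMIs came from 3 cells.

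Among the hexokinases, Hk3 was called higher in 3 types. In monocytes it stood at 9.51, 36.7, 41.1 and 34.1 CPM (log2 fold change 1.97 ± 0.41, edgeR adjusted p = 0.00299), with NCD far below the rest on only 7 UMIs. The macrophage markers that were higher in these monocytes are given with Ldha. With every cell thinned to 2000 UMIs the log2 fold change was 0.46 and the call was lost (edgeR adjusted p = 0.793). In neutrophils it stood at 61.5, 137, 161 and 127 CPM (1.34 ± 0.35, edgeR adjusted p = 0.0322), NCD again apart. In NK cells Hk3 had 0 UMIs over 53 cells in NCD and stood at 23.8, 25.1 and 9.47 CPM in the other libraries (edgeR adjusted p = 0.00568). Set against the upper limit of 3 UMIs that a count of 0 allows in NCD, 5.27 CPM, the pooled UMIs of the HFD pair stood at least 4.59-fold higher. That limit covers counting error only. Markers of other types also differed in NK cells. The 7 monocyte markers summed to 111, 391, 471 and 351 CPM in NK cells, 5 of the 7 were higher in both HFD libraries, and F13a1, Vcan, Chil3 and Ms4a4c were at 0 in NCD. Some of these 7 are also read in other types, as given with Hif1a. The 11 macrophage markers summed to 12.3, 22.1, 157 and 34.2 CPM in NK cells, 5 of them were higher in both HFD libraries, and Cd68, Vsig4, C1qa, C1qb and Marco were at 0 in NCD. Neutrophil markers in NK cells summed to 43.9, 17.7, 32.6 and 40.5 CPM, with 3 of 7 higher in both HFD libraries. Outside the called cells, Hk3 stood at 8.13, 37.2, 62.4 and 15.1 CPM. The part of any of these in the Hk3 difference was not tested. In macrophages, where its level was high in every library, Hk3 stood at 153, 137, 125 and 105 CPM and did not pass.

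Hk1 was called in 1 type. In neutrophils it stood at 24.2, 84.4, 66.7 and 67.8 CPM (log2 fold change 1.71 ± 0.44, edgeR adjusted p = 0.0291), and NCD, with 13 UMIs, was well below the other 3 libraries. In the other 7 types the mean of the HFD pair was between 0.721 and 1.65 times the NCD level, and none passed. A fit over all 8 types together, added after the data were seen, put the Hk1 effect in neutrophils 1.88 above the mean effect of the other types on the log2 scale (edgeR adjusted p = 0.0125, and 1.65% of all such pairs of gene and type passed). That joint fit entered the types of a library as separate samples, without a term for the library they share. Its adjusted p takes no account of this. Neutrophils as a class also differed in their own markers, whose 7 genes summed to 35016 CPM in NCD against 58445, 61740 and 50335 CPM in the other libraries. Their part in the Hk1 and Hk3 differences was not tested. In neutrophils Hk2, by contrast, spread widely within the HFD pair, at 39.2, 111, 55.4 and 67.2 CPM. In cDC1 it stood at 79.0, 67.7, 60.3 and 94.1 CPM and in macrophages at 141, 97.9, 79.4 and 103 CPM, with NCD above both HFD libraries. Hk2 passed in no type.

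Of the transporters, Slc2a1 in endothelial cells alone passed. It stood at 1.61, 18.3, 5.61 and 3.28 CPM (log2 fold change 2.46 ± 0.78, edgeR adjusted p = 0.0157). Both HFD libraries were above NCD, but they lay far apart from each other, and HFD replicate 1 contributed 13 UMIs from 96 cells, of which 46.2% came from 3 cells. In this type the fit gave every gene the spread of its neighbours in abundance, so that the distance between the HFD replicates did not enter the test of this gene. Without HFD replicate 1 the log2 fold change was 1.67, and without HFD replicate 2 it was 3.32. Neutrophil markers in endothelial cells summed to 89.7, 230.3, 204 and 175 CPM, 4 of the 7 were higher in both HFD libraries and none was at 0 in NCD. Outside the called cells Slc2a1 stood at 8.40, 25.2, 22.8 and 19.8 CPM, above its endothelial level in every library. The part of either in the endothelial value was not tested. The joint fit put the endothelial effect 2.13 above the mean of the other types (edgeR adjusted p = 0.0257). Elsewhere Slc2a1 went both ways without passing, as in B cells with 48.6, 29.0, 21.8 and 36.5 CPM. Slc2a3 was above NCD in both HFD libraries in 6 types and below it in 2, such as T cells at 62.7, 101, 82.1 and 104 CPM and NK cells at 100.1, 73.4, 82.9 and 92.1 CPM, and passed in no type. These orders were found in 48.5% and 36.1% of all tested pairs of gene and type. Slc2a6 in neutrophils stood at 83.9, 114, 110.2 and 129 CPM, also without passing.

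**Figure D3:**
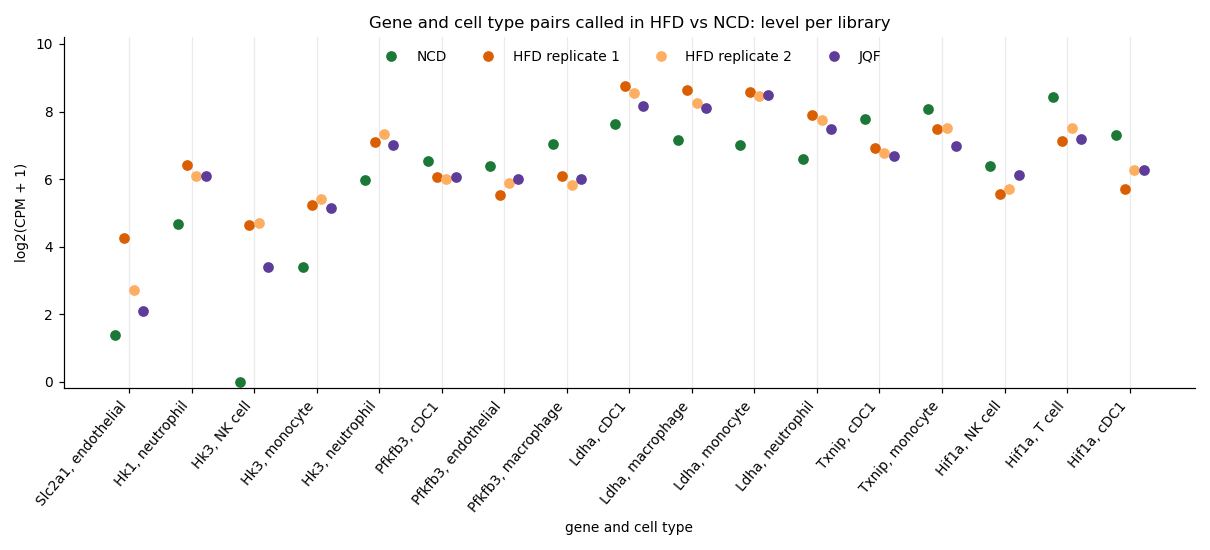
Level on a log2(CPM + 1) scale (y axis) in each library for the 17 pairs of gene and cell type called between HFD and NCD (x axis); each point is 1 library, without error bars since NCD and JQF have no replicate. NCD lies outside the range of both HFD points in all 17 pairs, below them in the 9 pairs called higher and above them in the 8 called lower. The pairs were chosen by this contrast, so this order follows from the choice. Of all tested pairs, 48.5% had NCD below both HFD libraries and 36.1% above both.

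Pfkfb3 was called lower in 3 types. In macrophages it stood at 131, 66.7, 55.2 and 63.1 CPM, a log2 fold change of -1.05 ± 0.18 (edgeR adjusted p = 0.0273), and NCD alone was high. In endothelial cells it stood at 83.0, 44.9, 58.3 and 62.6 CPM (-0.76 ± 0.25, edgeR adjusted p = 0.0224), and in cDC1 at 92.5, 66.0, 63.3 and 65.9 CPM (-0.68 ± 0.15, edgeR adjusted p = 0.0363). In those types too NCD stood above the other libraries. The distance between the HFD replicates did not enter the endothelial test, as given with Slc2a1. With cells thinned to 2000 UMIs the log2 fold change in cDC1 was -0.06 and no longer passed (edgeR adjusted p = 0.964). T cells had 80.6, 86.4, 68.9 and 78.8 CPM, B cells had 44.1, 72.1, 60.8 and 53.6 CPM and NK cells had 50.9, 84.3, 61.1 and 85.8 CPM, none past the threshold. NCD lay between the HFD libraries in T cells and below both in B cells and NK cells.

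Txnip was called lower in 2 types, both of the monocyte and dendritic cell family. In cDC1 it stood at 219.6, 119.9, 109 and 101 CPM (log2 fold change -1.10 ± 0.15, edgeR adjusted p = 0.0145). In monocytes it stood at 268, 177, 183 and 124 CPM (-0.64 ± 0.20, edgeR adjusted p = 0.0340). NCD was the highest library and JQF the lowest in both. In the 2 types where Txnip was most abundant it did not pass. Neutrophils had 710.4, 759, 716 and 710.6 CPM, nearly level over the 4 libraries, and endothelial cells had 636, 647, 980.3 and 1361 CPM, where the HFD libraries lay far apart.

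Hif1a was called lower in 3 types. In T cells it stood at 346, 139, 182 and 144 CPM (log2 fold change -1.12 ± 0.22, edgeR adjusted p = 0.00716). In cDC1 it stood at 156, 51.4, 76.6 and 75.6 CPM (-1.44 ± 0.28, edgeR adjusted p = 0.0292), and in NK cells at 82.5, 46.2, 51.1 and 67.9 CPM (-0.98 ± 0.27, edgeR adjusted p = 0.0363). NCD was the highest library in each, but in NK cells 42.6% of its 47 UMIs came from 3 cells. Markers of the monocyte and macrophage lists differed in these T cells as well. The 7 monocyte markers summed to 169, 430.1, 341 and 388 CPM, all 7 were higher in both HFD libraries, and Chil3 was at 0 in NCD. Outside monocytes, Ccr2, Ms4a4c, Ly6c2 and Itgam had medians of 48.3, 16.1, 12.7 and 9.17 CPM over the other tested types and libraries. F13a1, Vcan and Chil3 had medians of at most 1.22 CPM there, so the sum is not particular to monocytes. The 11 macrophage markers summed to 14.8, 32.2, 134 and 28.3 CPM, 8 of them were higher in both, and Spic was at 0 in NCD. Their part in the Hif1a call of T cells, and that of the markers given with Hk3 in the call of NK cells, was not tested. Neutrophils had 291, 183, 205 and 186 CPM and macrophages had 111, 67.7, 88.0 and 84.6 CPM, not past the threshold, while in endothelial cells both HFD libraries lay above NCD, at 94.3, 185, 125 and 83.9 CPM.

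Genes known to respond to tissue digestion also differed between the libraries. A list of 18 immediate-early and heat-shock genes (dissociation and stress) summed to 33725, 13575, 19720 and 24103 CPM in cDC1 and to 23174, 10574, 14646 and 18703 CPM in macrophages, and NCD was above both HFD libraries in 7 of the 8 types, all but neutrophils. Of its 143 tested pairs, 57 were called lower and 2 higher in HFD, with a median log2 fold change of -0.76 against 0.08 over all pairs. These were 39.9% and 1.4% of its pairs, against 7.67% and 5.86% of all pairs. Hspa1a and Dnajb1, heat-shock chaperones, were lower in 6 types each, and the immediate-early factors Junb and Atf3 in 5 types each. The list summed to 22362, 8777, 9808 and 17525 CPM in NK cells and to 10188, 5215, 5146 and 5792 CPM in endothelial cells. The median UMIs per endothelial cell also differed, at 15684, 5963, 6068.5 and 7903.5. Macrophage RNA moved in cDC1 as well, where 10 of 11 macrophage markers were higher in both HFD libraries, their sum was 54.8, 723, 1318 and 275 CPM, and C1qc, Cd5l and Spic were at 0 in NCD. Monocyte markers in cDC1 summed to 233, 357, 357 and 274 CPM. All 7 were higher in both HFD libraries, and F13a1, Vcan and Chil3 were at 0 in NCD. The part of these shifts in the Ldha, Pfkfb3, Txnip and Hif1a calls of cDC1 was not tested. Nor was the part of the stress list and of depth in the calls of the other types.

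A further property moved with the diet contrast, the length of a gene's introns. Over all genes, the median log2 fold change from NCD to HFD fell with intron length in every type, from 0.25 to 0.60 for genes with introns under 2 kb in total to -0.30 to -0.17 for those over 50 kb, whereas between HFD and JQF these medians stayed between -0.12 and 0.07. Spearman's rho across genes was between -0.34 and -0.20 by type in the diet contrast. Genes are not independent replicates, and whether intronic reads were counted in these matrices was not settled, since the file headers and the processing notes name different Cell Ranger versions. Pfkfb3, with 75084 bases of intron, was called in the direction in which genes of its length moved. With each library's trend over intron length entered in the fit, an alternative added after the data were seen, its log2 fold changes were -0.88 in macrophages, -0.61 in endothelial cells and -0.46 in cDC1, and none passed (edgeR adjusted p = 0.0602, 0.0933 and 0.0931). Txnip, with 804 bases of intron, was called against its class, and with the trend entered it fell by 1.52 in cDC1 and 1.18 in monocytes on the log2 scale (edgeR adjusted p = 0.0161 and 0.000346). Hk1, with 102522 bases, also went against its class in neutrophils, at 1.99 with the trend entered (edgeR adjusted p = 0.000359). Ldha, with 10843 bases, remained called in monocytes (1.12, edgeR adjusted p = 0.00307) and neutrophils (1.19, edgeR adjusted p = 0.00797) and no longer in macrophages (1.20, edgeR adjusted p = 0.0572) or cDC1 (0.64, edgeR adjusted p = 0.0712). Hif1a remained called in T cells and NK cells and no longer in cDC1, where its log2 fold change was -1.39 with the trend entered against -1.44 without it (edgeR adjusted p = 0.0511). In all, 10 pairs were then higher and 5 lower, of which 7 and 4 were among the pairs called without the trend. The others were Slc2a3 in T cells, Hk2 in neutrophils and Ldha in B cells, all higher, and Txnip in B cells, lower. Their edgeR adjusted p with the trend entered was 0.0383, 0.0408, 0.0475 and 0.0451, in that order.

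**Figure D4:**
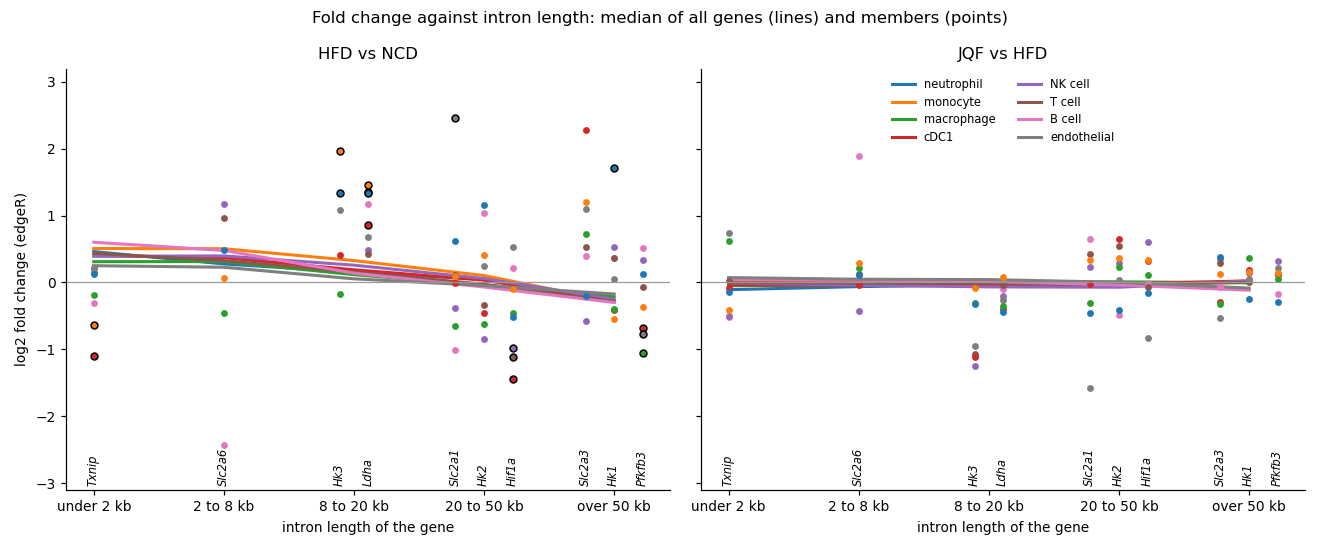
Fitted log2 fold change (edgeR, y axis) against the class of total intron length (x axis, kb), HFD against NCD on the left and JQF against HFD on the right; lines join the medians of all genes in each cell type, points are the 10 genes by cell type, ringed where called, and points beyond the axis are not drawn. On the left all 8 lines slope down, from 0.25 to 0.60 at the shortest class to -0.30 to -0.17 at the longest, and on the right they stay near 0.

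Within types, the differences were traced in subsets chosen by further markers, as values without a test. Among T cells, Hif1a stood at 418, 118, 181 and 94.4 CPM in CD8 T cells and at 351, 217, 243 and 206 CPM in CD4 T cells, and in T cells with Foxp3 UMIs, the regulatory lineage, it stood at 474, 288, 337 and 270.0 CPM. NCD was highest in all 3 subsets and the step was largest among CD8 T cells. T cells with no cycling marker also had NCD highest, at 292, 129, 153 and 133 CPM. Type 17 T cells did not, at 80.1, 115, 209 and 197 CPM, with 9 such cells in NCD. Kupffer-like macrophages, the resident macrophages of the liver, had Ldha at 139, 281, 270.0 and 258 CPM and Pfkfb3 at 132, 28.3, 57.5 and 65.8 CPM over 130, 34, 852 and 213 cells. The lipid-associated macrophages that appear in fatty liver could not be compared, with 4, 318, 779 and 67 such cells. The macrophage class thus held different subsets in the groups, with 130 of 142 cells Kupffer-like in NCD, 34 of 456 and 852 of 2029 in HFD replicates 1 and 2, and 213 of 338 in JQF. Patrolling monocytes had Ldha at 99.3, 395, 323 and 344 CPM and classical monocytes at 162, 382, 364 and 365 CPM, so that NCD was lowest in both subsets. These values rest on 32, 163, 366 and 114 patrolling cells and on 21, 579, 857 and 376 classical cells, so that the make-up of the monocyte class also differed. In sinusoidal endothelial cells Slc2a1 stood at 1.73, 17.5, 4.34 and 1.84 CPM, with 31 such cells in HFD replicate 1. These values rest on 21, 3, 10 and 3 UMIs, too few to place the difference in this subset.

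The other genes of the pathway put these values in context. Of 107 pairs tested for the other glycolytic enzymes, 52 were called higher and 4 lower in HFD than in NCD, and their median log2 fold change was 0.82. These were 48.6% and 3.74% of the list's pairs, against 5.86% and 7.67% of all pairs. Gapdh, Aldoa and Tpi1, enzymes of the middle of the pathway, were each called higher in 7 of 8 types. In monocytes Tpi1 stood at 40.8, 247, 234 and 194 CPM (log2 fold change 2.5 ± 0.27, edgeR adjusted p = 1.92e-05) and Gapdh at 420, 978, 1107 and 1136 CPM (1.25 ± 0.26, edgeR adjusted p = 0.00334), with NCD lowest for both. Eno1, the enolase, was called higher in 8 of 8 types, for instance in macrophages at 9.18, 116, 121 and 105 CPM, but the near-copy Eno1b can share its reads and stood at 7.43, 8.60, 4.20 and 6.71 CPM there, so its value is uncertain. Ldhb, the heart-type dehydrogenase subunit, was called lower in T cells and endothelial cells and higher in macrophages, on 0.874 CPM in NCD. Pfkp was called lower in cDC1, at 437, 215, 271 and 299 CPM (-1.0 ± 0.22, edgeR adjusted p = 0.0377). With the intron trend entered, 35 pairs of this list were called higher, and 11.7% of all pairs were called in either direction.

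Of the other transporters, 6 pairs were higher and 4 lower among 42 tested (14.3% and 9.52%, against 5.86% and 7.67% of all pairs). Slc16a3, which exports lactate from glycolytic cells, was higher in 4 types, as in macrophages at 6.99, 24.2, 17.9 and 10.1 CPM (log2 fold change 1.63 ± 0.35, edgeR adjusted p = 0.0403). Among the regulators, 5 pairs were higher and 5 lower of 85 (5.88% in each direction, near the share of all pairs), with Pdk1 and Pgd higher in 2 types each and Ppp1r3b and Pdk3 lower in 2 types each. Pdk1, a kinase that inhibits the pyruvate dehydrogenase of mitochondria, stood at 2.72, 22.4, 14.9 and 9.34 CPM in monocytes (2.69 ± 0.70, edgeR adjusted p = 0.0139). Its NCD value there rests on only 2 UMIs over 53 cells, so the size of this fold change is uncertain.

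The hypoxia pathway went in both directions, with 21 pairs higher and 16 lower of 130 tested and a median log2 fold change of 0.20. These were 16.2% and 12.3% of its pairs, against 5.86% and 7.67% of all pairs. Ddit4, a stress-induced brake on mTOR signalling, was higher in 7 types, as in endothelial cells at 26.0, 166, 101 and 84.3 CPM (2.15 ± 0.28, edgeR adjusted p = 8.21e-13). As for Slc2a1, the distance between the HFD replicates did not enter that endothelial test. In the other called types the edgeR adjusted p of Ddit4 was between 0.00664 and 0.0414. Other subunits of the hypoxia-inducible factors were lower in some types. Epas1, the other oxygen-regulated subunit, was lower in 4 types, as in T cells at 96.1, 37.3, 36.9 and 58.5 CPM (-1.39 ± 0.18, edgeR adjusted p = 0.000677). Arnt, the constant partner of both, was lower in T cells, NK cells and cDC1, the 3 types in which Hif1a was called lower, at 104, 53.0, 57.7 and 58.3 CPM in T cells (-0.92 ± 0.18, edgeR adjusted p = 0.00774). The Mondo and ChREBP list, which holds the regulators of Txnip, had 5 pairs higher and 4 lower of 55 (9.09% and 7.27%), and the growth control list had 2 higher and 7 lower of 71 (2.82% and 9.86%), against 5.86% and 7.67% of all pairs. Irs2, an insulin receptor substrate, was lower in 4 types, as in T cells at 40.6, 9.87, 7.54 and 31.6 CPM (-2.24 ± 0.22, edgeR adjusted p = 0.000185). These lists were chosen with results of these data known, so their counts are descriptions.

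**Figure D5:**
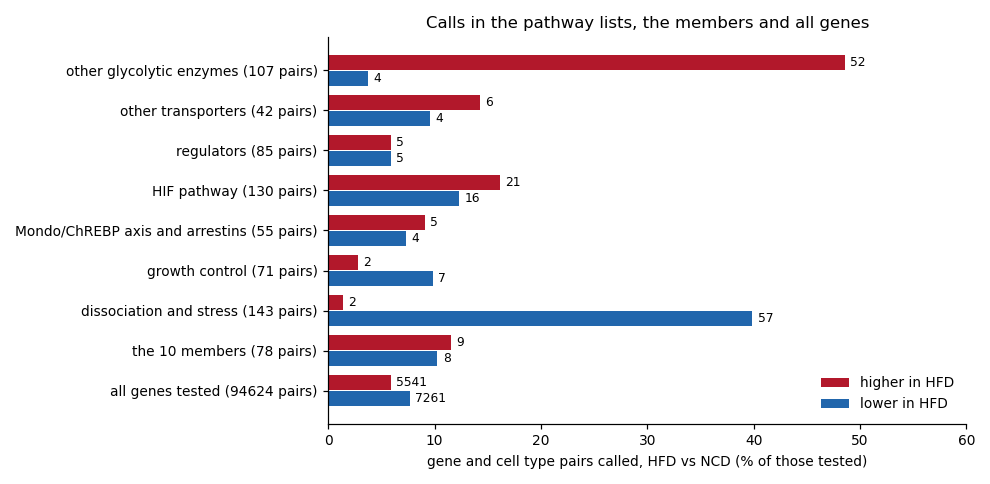
Share of tested pairs of gene and cell type that were called (x axis, percent, from 0) in HFD against NCD for each gene list (y axis), with the number of called pairs beside each bar, red for higher and blue for lower in HFD. The other glycolytic enzymes hold 52 higher calls in 107 pairs and the dissociation and stress list 57 lower calls in 143, against 9 and 8 in 78 pairs for the 10 genes. Over all genes 5.86% of pairs were called higher and 7.67% lower.

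Between HFD and JQF none of the 78 pairs was called in either direction by edgeR, 9 had an unadjusted p under 0.05 (10.6% of all pairs did), and DESeq2 called none, with 3 at an unadjusted p under 0.05 (2.73% of all pairs). Over all genes 0.687% of pairs were called higher and 0.436% lower. By type the share called in either direction was 0.00934% in B cells, 2.23% in NK cells, 2.4% in T cells, 0% in cDC1, 1.28% in endothelial cells, 0.0163% in macrophages, 2.43% in monocytes and 0.076% in neutrophils. The JQF level of Hk3 was below both HFD libraries in 8 of 8 types, as in cDC1 at 28.0 and 33.1 CPM in HFD and 13.3 CPM in JQF, and that of Ldha was below both in 6 of 8 types, as in macrophages at 396 and 306 CPM in HFD and 274 CPM in JQF. JQF lay below both HFD libraries in 41.9% of all tested pairs of gene and type. In B cells, where Hk3 was not tested, it had 8 and 3 UMIs in HFD and 0 in JQF. Outside the called cells Hk3 went the same way, from 37.2 and 62.4 CPM in HFD to 15.1 CPM in JQF, and macrophage markers in cDC1 went from 723 and 1318 to 275 CPM. The part of either was not tested. Among the lists, the other glycolytic enzymes, the other transporters and the regulators had 0 calls, and the hypoxia list had 2 higher, Epas1 in T cells and Vegfa in NK cells. The Mondo and ChREBP list had 1 higher, Arrdc3 in NK cells. The growth control list had 3 higher, all Irs2, in NK cells, T cells and monocytes, and 1 lower, Myc in endothelial cells. Irs2 in T cells stood at 9.87 and 7.54 CPM in HFD and 31.6 CPM in JQF (log2 fold change 1.96 ± 0.22, edgeR adjusted p = 0.000811). Since 20 of 143 stress list pairs were called higher in JQF than in HFD, with a median log2 fold change of 0.51, these genes moved with this contrast too, and their part in it was not tested. Both contrasts use the same HFD pair.

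Across the 45 points of type and library and 7086 genes with a mean of at least 20 CPM, the gene most like Ldha on log2(CPM + 1) was the glycolytic enzyme Pgam1, with a Pearson r of 0.82, and Tpi1 was also among its 3 closest, at 0.72. The closest to Txnip was Xpc (0.89), to Hk3 the phagosomal metal transporter Slc11a1 (0.90), to Slc2a6 the myeloid kinase Fgr (0.92) and to Hk2 Gm46224 (0.90). Slc2a1 was closest to Fgd3 (0.85), Slc2a3 to Tmem154 (0.85), Hk1 to Mark2 (0.81) and Pfkfb3 to Rab8b (0.82). Among these genes themselves the lowest r was that of Ldha with Pfkfb3, at -0.46.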

How the data were processed

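Droplet 3′ libraries (10x) were analysed from the UMI counts the authors deposited, raw and not normalized, in filtered and unfiltered matrices. The submitters' processing notes name Cell Ranger 6.0.1, Seurat 4.0.3 and mm10, while the file headers name versions 7.0.0 and 4. Strand and intron settings are not given in the sources used here, and antisense genes overlap Slc2a1, Hk1, Hk2, Hk3, Pfkfb3, Txnip and Hif1a. The called barcodes of a library held between 69445244 and 109446496 UMIs, and intervals and limits cover counting error only. The 10 genes, the lists and the marker genes were chosen with earlier results of these data known.

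A cell took the type with the largest share of its markers detected, with at least 3 markers and no tie. The best share in another lineage could not exceed 50% of that share. Hepatocyte markers were left out of this limit for all types, and NK cell markers for T cells. Macrophages, monocytes and dendritic cells counted as 1 lineage, as did B cells and plasma cells, so the limit did not apply among them. Between lineages under the limit, this gate stood in for doublet removal, since Scrublet's own threshold marked 5, 1, 319 and 1 barcodes. Mixtures within a lineage were not removed by it. UMIs were summed per library and type, and 8 types with at least 50 cells in every library were tested. edgeR 4.0.16 in R 4.3.3 (quasi-likelihood test, TMM factors, filterByExpr, 1 residual degree of freedom) was fitted to all genes of a type over the 4 libraries, with NCD and JQF assumed to vary like the HFD pair. The p-values were adjusted by Benjamini-Hochberg per type and contrast at 0.05, and the SE is the log2 fold change divided by the root of F. The script was tested on simulated data. Alternatives were DESeq2 1.42.0, other factors, filters and gates, cells thinned to 2000 UMIs and, added after the data were seen, a trend over intron length (GENCODE M21) and 1 fit over all types. Genes named from the lists were the called ones with most types, then highest mean. Promoters are from RefSeq. The gene closest to Hif1a is not reported here.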

Additional observations from a re-analysis of the deposited data

Results flagged for a closer look

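A fit over the 8 types together, chosen after the data were seen, compared the change from NCD to HFD in 1 type with the mean change in the other types. The types of a library were entered as separate samples, without a term for the library they share, and the adjusted p takes no account of this. The difference passed for 5 pairs (edgeR's quasi-likelihood test, Benjamini-Hochberg within each type, with 125520 tests over the 8 types). On the log2 scale it was 1.88 for Hk1 in neutrophils (adjusted p = 0.0125) and 2.13 for Slc2a1 in endothelial cells (adjusted p = 0.0257). It was -3.82 for Hk3 in macrophages (adjusted p = 0.00182), -3.13 for Hk3 in cDC1 (adjusted p = 0.0196) and -4.12 for Slc2a6 in B cells (adjusted p = 0.0419). The means behind the Hk3 and Slc2a6 differences include types with 0 UMIs in NCD, so their size depends on the prior count and does not measure an effect.

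UMIs outside the called cells, which enter no test, held more of 6 of the 10 genes in every HFD and JQF library than in NCD, the transporters, Hk2, Hk3 and Ldha. Of all 18073 genes with at least 10 such UMIs over the libraries, 37.7% had this order. For 4 of them the lowest of those libraries was over 2 times NCD. It exceeded NCD 2.36-fold for Slc2a1, 2.78-fold for Slc2a3, 6.71-fold for Slc2a6 and 2.5-fold for Hk2. The kept cells moved the same way, at 12.02, 38.8, 26.6 and 33.1 CPM for Slc2a1 and 2.24, 12.9, 13.002 and 10.8 CPM for Slc2a6, and 3472 of the 5975 kept cells in NCD were endothelial, the type lowest in Slc2a1. The part of this make-up in the values outside cells was not tested. No group has 4 libraries, so no library was tested as standing apart.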

How the results depend on the processing

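Of the 9 higher and 8 lower pairs in HFD, Ldha in monocytes passed under all 11 alternatives with a test (edgeR or DESeq2 adjusted p from 3.93e-07 to 0.00737), and Hif1a in T cells and Txnip in cDC1 passed under 10. Pfkfb3 in cDC1 (adjusted p up to 0.964), Pfkfb3 in endothelial cells (up to 0.454) and Txnip in monocytes (up to 0.254) passed under only 6. With thinned cells the log2 fold change of Hk3 in monocytes was 0.46 (adjusted p = 0.793) and that of Pfkfb3 in cDC1 was -0.06. The counts moved most under DESeq2 (2 higher, 3 lower), cells thinned to 2000 UMIs (3 higher, 3 lower), library totals alone (15 higher, 6 lower), a gate without the limit on other lineages (8 higher, 5 lower) and the intron trend, added after the data were seen (10 higher, 5 lower). These were not always the same pairs. Of the 9 higher and 8 lower pairs, 4 and 4 remained with that gate and 2 and 2 with thinned cells. DESeq2 kept 2 and 3, library totals 9 and 5, and the trend 7 and 4. Over all genes 13.5% of pairs were called, against 5.75% under DESeq2, 8.85% with thinned cells, 18.6% with library totals, 10.5% with that gate and 11.7% with the trend. Between HFD and JQF, library totals alone gave 3 lower pairs, and testing without a filter on low counts gave 1 higher and 1 lower. Over all genes 2.28% and 2.23% of pairs were called in that contrast under these settings. The glycolytic enzymes' 52 higher pairs were 34 under DESeq2, 28 with thinned cells and between 35 and 61 elsewhere. Among the called pairs no fold change turned its direction. Pairs that were not called could turn, as with Pfkfb3 in T cells between NCD and HFD, at -0.07 without the intron trend and 0.13 with it. The cause of these moves was not tested.

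Leaving out an HFD library leaves no spread among samples, so it gave values without a test. Without HFD replicate 1 the log2 fold change was 1.67 for Slc2a1 in endothelial cells, 1.21 for Ldha in neutrophils and -0.87 for Hif1a in NK cells. Without HFD replicate 2 it was 3.32 for Slc2a1 in endothelial cells, 1.78 for Hk3 in monocytes, -1.07 and -0.72 for Pfkfb3 in endothelial cells and cDC1, and -0.76 for Txnip in monocytes. No paired analysis was possible because the groups compared share fewer than 2 replicate numbers. Depth limits the NCD values of NK cells, monocytes, cDC1 and neutrophils, which rest on 53 to 91 cells.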

Other observations

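Types with fewer than 50 cells in some library were not tested, and their values are given in the order NCD, HFD replicate 1, HFD replicate 2 and JQF. Hepatocyte-like cells, of which the libraries held 102, 47, 230 and 46, had Ldha at 224, 1229, 1139 and 569 CPM. Their NCD library was the lowest, as in the 8 tested types. Mature dendritic cells had a higher Pfkfb3 level than any of the 8 tested types in each of the 4 libraries, at 689, 349.8, 402 and 282 CPM, the first of them from 9 cells. Conventional type 2 dendritic cells had Hif1a at 107, 51.3, 67.0 and 69.3 CPM and Hk2 at 197, 95.3, 80.0 and 151 CPM over 46, 259, 270 and 286 cells. Both genes were highest in NCD there. Epithelial cells had Txnip at 934, 718, 638 and 662 CPM and Hk2 at no more than 5.90 CPM.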
